A study of Mus musculus with 13 samples.

Results

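The genes described here are 10 genes of antigen presentation on major histocompatibility complex (MHC) class II and of the skin cells that carry it: H2-Aa, H2-Ab1, H2-Eb1, H2-DMa, H2-DMb1, Cd74, Ciita, Cd207, Itgax and Cd86. They were taken by symbol from a gene table of 55357 genes, and all 10 were found and passed the low-count filter. The RNA was that of lymphedematous mouse tails, swollen because lymph does not drain, taken 28 days after TNT from animals 12 weeks old. The labels do not spell out TNT; it is read here as tissue nanotransfection, a transfer of nucleic acids into skin by a brief electric field. There were 6 TNTProx1 libraries, from the group named for the lymphatic transcription factor Prox1, and 7 TNTSham libraries from the sham group. Both groups had tail lymphedema, and strain, sex, the delivered construct and its promoter are not given in the labels. Whether each library stands for its own animal is not stated, so p-values measure only the spread between these libraries, which may be technical.

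Class II molecules are pairs of an alpha and a beta chain that show peptides from taken-up proteins to CD4 T cells. Dendritic cells, macrophages and B cells carry them, and in the epidermis they are carried by Langerhans cells, the resident antigen-presenting cells of the skin. The invariant chain Cd74 holds the groove shut during transport, H2-DM exchanges its remnant for peptide, and Ciita is the coactivator without which the genes are hardly transcribed. In lymphedema, CD4 T cells are known to take part in the inflammation and fibrosis of the swollen tissue.

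Total counts lay between 29691929 and 48007392 per library. TNTProx1 4, 5 and 6 stood apart from the other 10 libraries. Their share of counts on TEC genes, which are provisional and often unspliced gene models, was 0.136 to 0.193%, against 0.378 to 0.745% in the remaining libraries. The nuclear RNA Malat1 stood at 3410 to 3539 CPM (a count scaled to a common library size) in those 3, against 8979 to 16814 CPM elsewhere. Differences of the 10 genes are therefore given for all 13 libraries and for the 10 without them. Prox1, the gene the group is named for, was at 18.7 to 72.9 CPM in TNTProx1 and at 23.4 to 33.1 CPM in TNTSham, so the groups overlapped. The delivered construct is not given and may not be counted on this gene, so these levels do not check the label. Xist reached 2095 CPM in TNTSham 1, while no other library exceeded 2.01 CPM.

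No gene of the set differed between TNTProx1 and TNTSham beyond the spread between libraries. The edgeR quasi-likelihood test called 0 of the 10 at an adjusted p under 0.05, and it called 0 of the 22876 genes tested (0%). At an unadjusted p under 0.05 there were 0 of the 10, against 12.2% of all tested genes, and in the 10 libraries again 0 of the 10, against 21.4%. The DESeq2 Wald test also called 0 of the 10, against 2.69% of all tested genes. Of the 10 genes, 7 had a log2 fold change above 0, against 47.7% of all tested genes. Their median was 0.13, and the median of all tested genes was -0.02. In the 10 libraries 5 lay above 0 (49.8% of all tested genes), and the median was 0.02. With limma voom 2 lay above 0 and with a skeletal muscle score as a covariate 3. With limma trend 8 did and with the TEC share as a covariate 9, so the direction of the set depends on the fit. The groups overlapped for each of the 10 genes, while 0.612% of all tested genes had groups that did not.

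Regulation of the class II genes runs through a short promoter module, in which an X box bound by the RFX complex precedes a Y box bound by NF-Y. In the RefSeq promoter table (mouse build GRCm38.p6) 6 of the 10 genes had an entry, with 7 promoters in all, each 300 bases long from 250 before to 50 after the start. The 3 promoters below are shown because they hold both letter groups at the usual spacing and belong to genes that varied together across libraries. H2-DMa varied with them too and did not hold both at this spacing, and H2-Ab1 and Cd74 had no entry. Capitals mark GNAACT, letters from the X box, and GATTGG, the Y box letters. These letters were chosen after the promoters had been read.
H2-Aa: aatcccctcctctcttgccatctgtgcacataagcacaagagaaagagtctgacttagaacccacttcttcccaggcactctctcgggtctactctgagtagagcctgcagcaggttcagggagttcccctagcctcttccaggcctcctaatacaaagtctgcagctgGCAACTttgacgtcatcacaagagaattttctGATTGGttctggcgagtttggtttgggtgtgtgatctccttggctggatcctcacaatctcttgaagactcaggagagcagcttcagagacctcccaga
H2-Eb1: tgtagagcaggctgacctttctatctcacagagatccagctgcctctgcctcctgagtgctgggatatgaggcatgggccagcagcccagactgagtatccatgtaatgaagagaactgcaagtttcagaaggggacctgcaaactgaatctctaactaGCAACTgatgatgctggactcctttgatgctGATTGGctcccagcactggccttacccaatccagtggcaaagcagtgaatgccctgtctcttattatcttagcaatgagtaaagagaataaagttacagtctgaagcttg
H2-DMb1: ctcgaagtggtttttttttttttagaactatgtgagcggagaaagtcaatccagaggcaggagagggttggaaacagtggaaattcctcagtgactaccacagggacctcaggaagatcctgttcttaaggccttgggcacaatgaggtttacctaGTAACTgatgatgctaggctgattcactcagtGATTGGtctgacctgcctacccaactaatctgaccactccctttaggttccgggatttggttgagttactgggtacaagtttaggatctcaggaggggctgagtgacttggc
The H2-Aa promoter lies on the minus strand at chr17:34287774-34288073, that of H2-Eb1 on the plus strand at chr17:34305617-34305916 and that of H2-DMb1 on the plus strand at chr17:34152941-34153240. Between the letter groups lie 26 bases in H2-Aa, 25 in H2-Eb1 and 26 in H2-DMb1. The Y box letters begin 49, 60 and 62 bases before the start. A search of both strands for GNAACT followed by GATTGG after 15 to 35 bases, with no overlap allowed, found the pair in 100 of 32851 promoters in the table (0.304%). GATTGG was in 16.1% of them and GNAACT in 42.8%. Besides these 3 genes, 1 other H2 gene, H2-Eb2, had the pair. The promoters of Cd207 and Itgax and both promoters listed for H2-DMa did not hold the pair at this spacing, which says only that this arrangement of letters is not in those windows.

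H2-Aa (ENSMUSG00000036594.16, chromosome 17), the alpha chain of the I-A molecule, had a lowest, median and highest level of 187, 273 and 379 CPM in TNTProx1, against 193, 261 and 296 CPM in TNTSham. TNTProx1 2, 4 and 5 lay above the TNTSham range and TNTProx1 3 below it. The means were 281 ± 84.8 CPM in TNTProx1 (SD, n = 6) and 257 ± 36.6 CPM in TNTSham (SD, n = 7), and the difference on the log2 scale was 0.13 ± 0.17 (SE; adjusted p = 0.787 in edgeR). As a fold this is 1.10, with a 95% interval from 0.847 to 1.42.

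H2-Ab1 (ENSMUSG00000073421.7, chromosome 17), the beta chain that pairs with H2-Aa, ran at 92.7, 167 and 205 CPM in TNTProx1 (lowest, median, highest) and at 96.4, 138 and 158 CPM in TNTSham. The same 3 TNTProx1 libraries, 2, 4 and 5, were above the TNTSham range, and TNTProx1 1 was below it. Its fold was 1.17, with a 95% interval from 0.884 to 1.55 (adjusted p = 0.665 in edgeR).

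H2-Eb1 (ENSMUSG00000060586.12, chromosome 17), the beta chain of the I-E molecule, was at 109, 178 and 248 CPM in TNTProx1 (lowest, median, highest), against 106, 136 and 173 CPM in TNTSham. It had the smallest p of the 10 genes, with a fold change on the log2 scale of 0.34 ± 0.19 (SE; adjusted p = 0.519 in edgeR). The fold of 1.26 had a 95% interval from 0.948 to 1.68. In the 10 libraries its log2 fold change was 0.06 ± 0.20 (SE; adjusted p = 0.909 in edgeR). TNTProx1 4 and 5 had its highest levels, at 248 and 223 CPM. H2-Ea, the gene of the alpha chain that pairs with it, had 1 count in TNTProx1 1 and 1 in TNTProx1 3, and 0 counts in the other 11 libraries. In C57BL/6 mice this gene is known to be silent, and the strain used here is not given.

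Without TNTProx1 4 to 6 the folds of H2-Aa and H2-Ab1 were 0.995 and 0.989, with 95% intervals from 0.731 to 1.35 and from 0.712 to 1.37. Reads shared between close copies in the MHC region may be split among them, and how the counting treated such reads is not stated.

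**Figure D1:**
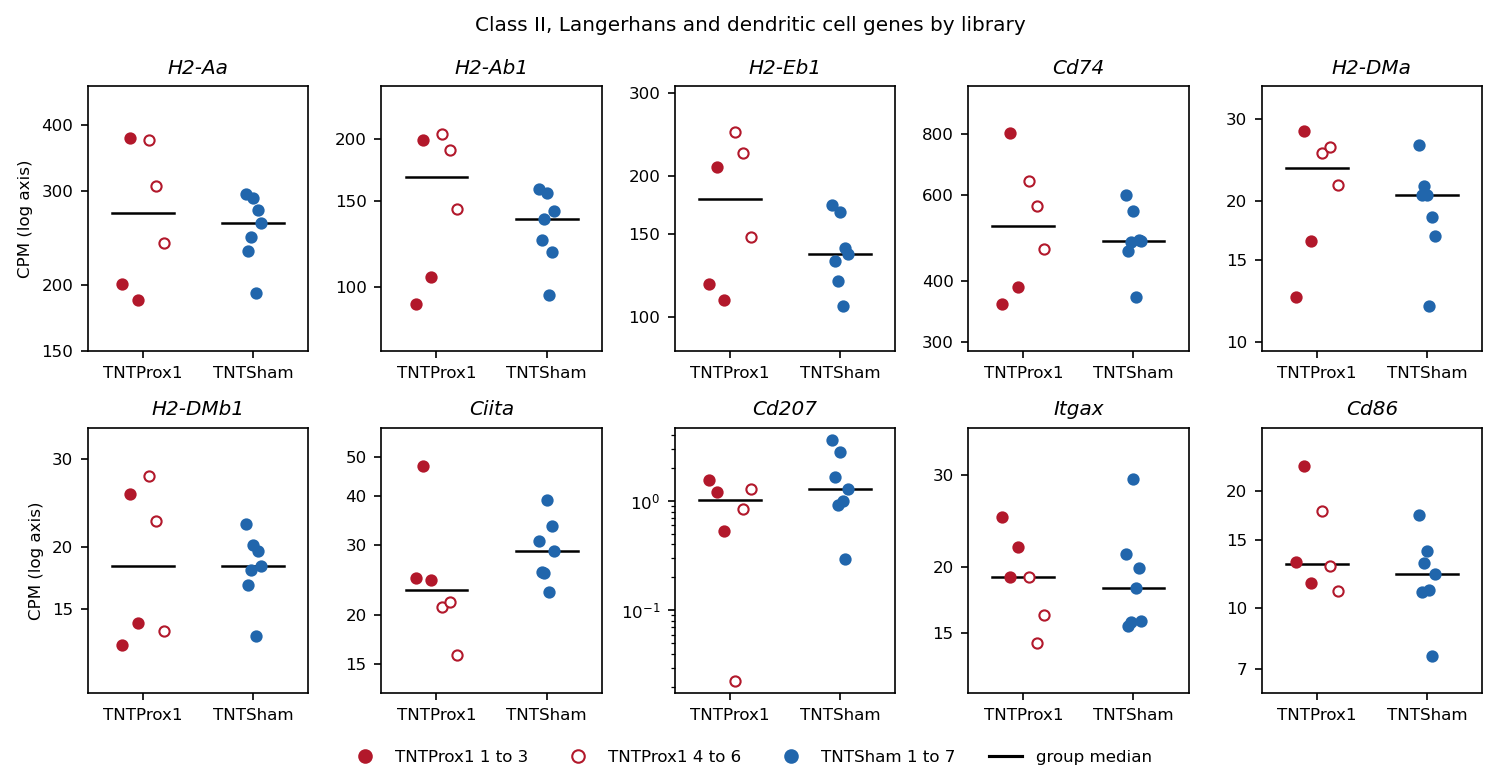
Level of each of the 10 genes in CPM (vertical log axes) in TNTProx1 libraries (red, left; open circles are TNTProx1 4 to 6) and TNTSham libraries (blue, right); each point is 1 library and each line a group median. H2-Aa runs from 187 to 379 CPM in TNTProx1 and from 193 to 296 CPM in TNTSham, and the groups overlap in every panel.

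Cd74 (ENSMUSG00000024610.16, chromosome 18), the invariant chain, was the most abundant of the 10 and stood at 358, 518 and 805 CPM in TNTProx1 (lowest, median, highest), against 371, 484 and 602 CPM in TNTSham. TNTProx1 2 and 4 were above the TNTSham range and TNTProx1 1 below it. Its log2 fold change was 0.13 ± 0.18 (SE; adjusted p = 0.796 in edgeR), and 0.07 ± 0.23 in the 10 libraries. Without TNTProx1 2, the library with 805 CPM, it was -0.02.

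H2-DMa (ENSMUSG00000037649.11, chromosome 17), the alpha chain of the peptide exchanger H2-DM, had 12.5, 23.6 and 28.3 CPM in TNTProx1 (lowest, median, highest) and 11.9, 20.7 and 26.3 CPM in TNTSham. Only TNTProx1 2 lay outside the TNTSham range, above it. H2-DMb1 (ENSMUSG00000079547.5, chromosome 17), a beta chain of H2-DM, had 12.7, 18.3 and 27.7 CPM in TNTProx1 and 13.3, 18.3 and 22.2 CPM in TNTSham, with medians that were the same to 3 digits. The folds were 1.11 for H2-DMa (95% interval 0.828 to 1.498) and 1.06 for H2-DMb1 (95% interval 0.791 to 1.41). In the 10 libraries they were 0.974 and 0.951. H2-DMb1 has a close copy, H2-DMb2, at 8.12 ± 3.26 CPM in TNTProx1 (SD, n = 6) and 8.004 ± 1.39 CPM in TNTSham (SD, n = 7), so the split of reads between them is uncertain.

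Ciita (ENSMUSG00000022504.11, chromosome 16), the coactivator, stood at 24.8, 47.5, 24.5, 20.9, 21.6 and 15.8 CPM in TNTProx1 1 to 6. In TNTSham its lowest, median and highest levels were 22.8, 29.0 and 39.0 CPM. TNTProx1 4, 5 and 6 were below the TNTSham range, TNTProx1 2 was above it, and TNTProx1 1 and 3 were inside. The log2 fold change was -0.19 ± 0.21 (SE; adjusted p = 0.747 in edgeR), and 0.13 ± 0.21 in the 10 libraries (adjusted p = 0.781 in edgeR), so its sign followed the inclusion of TNTProx1 4 to 6. Without TNTProx1 2 it was -0.45.

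**Figure D2:**
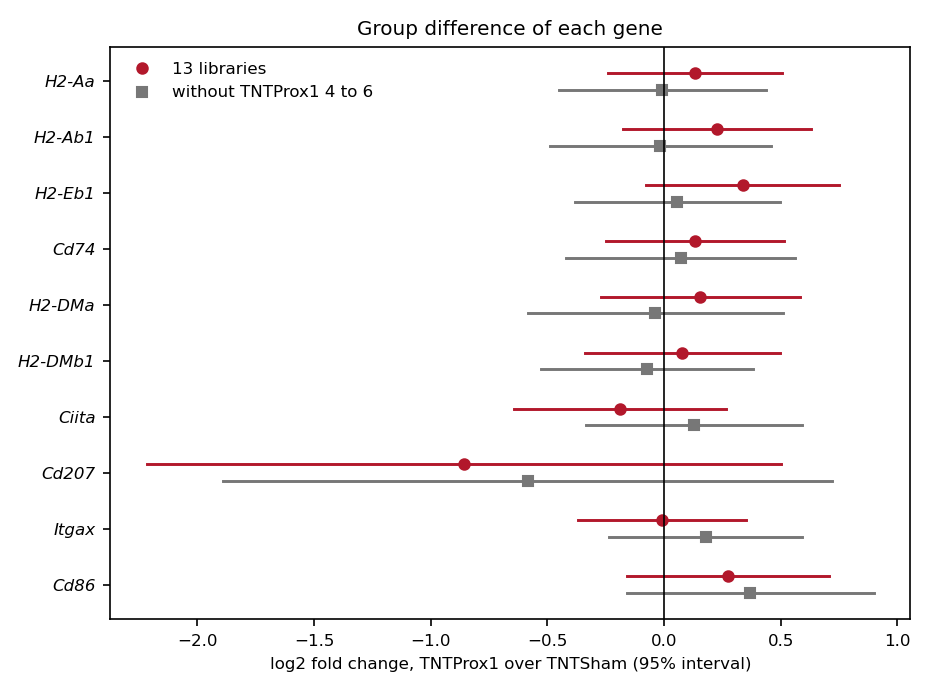
Log2 fold change of TNTProx1 over TNTSham for each gene (horizontal axis), from 13 libraries (red circles) and from the 10 without TNTProx1 4 to 6 (grey squares), with 95% intervals from the edgeR fit as lines. All 20 intervals cross 0, and that of Cd207 is the widest.

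Cd207 (ENSMUSG00000034783.8, chromosome 6), which encodes langerin, the lectin that builds the Birbeck granules of Langerhans cells, was the rarest of the 10. Its counts ran from 1 to 128 per library. The levels were 1.55, 1.21, 0.527, 0.0225, 0.847 and 1.29 CPM in TNTProx1 1 to 6. The lowest, median and highest levels in TNTSham were 0.295, 1.27 and 3.59 CPM. The single count in TNTProx1 4 was the only value below the TNTSham range, and the highest value of all 13 was in TNTSham 1, the library with Xist.

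The means of Cd207 were 0.909 ± 0.564 CPM in TNTProx1 (SD, n = 6) and 1.65 ± 1.16 CPM in TNTSham (SD, n = 7), which on the log2 scale is a difference of -0.86 ± 0.64 (SE; adjusted p = 0.629 in edgeR). The fold of 0.552 had a 95% interval from 0.215 to 1.42, which spans both a strong decrease and an increase. The log2 fold change was -0.60 without TNTProx1 4, -0.54 without TNTSham 1 and -0.58 in the 10 libraries. In a bulk sample, fewer cells of a type and less RNA per cell cannot be told apart.

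Itgax (ENSMUSG00000030789.10, chromosome 7) encodes CD11c, an integrin subunit of dendritic cells and some macrophages. It was at 14.4, 19.2 and 25.0 CPM in TNTProx1 (lowest, median, highest) and at 15.4, 18.3 and 29.5 CPM in TNTSham. Its log2 fold change was the nearest to 0 of the 10, at -0.01 ± 0.17 (SE; adjusted p = 0.989 in edgeR), with a fold between 0.774 and 1.28 at 95%. The sign turned in several other fits, and in the 10 libraries the value was 0.18 ± 0.19.

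Cd86 (ENSMUSG00000022901.14, chromosome 16), a costimulatory ligand for CD28 on T cells, had 11.1, 12.99 and 23.2 CPM in TNTProx1 (lowest, median, highest), against 7.56, 12.3 and 17.4 CPM in TNTSham. TNTProx1 2 and 4 lay above the TNTSham range. The log2 fold change was 0.27 ± 0.20 (SE; adjusted p = 0.629 in edgeR) with 13 libraries and 0.37 ± 0.24 with 10, and without TNTProx1 2 it was 0.10.

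Levels of different genes were compared per kilobase of the longest principal transcript, as CPM per kb. In this order Cd74 came first, at 382 ± 120 CPM per kb in TNTProx1 (SD, n = 6) and 349 ± 51.9 in TNTSham (SD, n = 7). H2-Aa followed at 249 ± 75.2 CPM per kb in TNTProx1 and 227 ± 32.4 in TNTSham, then H2-Ab1 at 129 ± 40.7 in TNTProx1 and 110 ± 18.1 in TNTSham, and H2-Eb1 at 105 ± 35.1 in TNTProx1 and 83.3 ± 14.6 in TNTSham. Each of Cd74, H2-Aa and H2-Ab1 was above the next in 13 of 13 libraries, and H2-Eb1 was above H2-DMb1 in 13 of 13.

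H2-DMb1 and H2-DMa lay far lower, at 13.8 ± 4.75 and 13.1 ± 3.71 CPM per kb in TNTProx1 and at 13.1 ± 2.02 and 11.8 ± 2.69 CPM per kb in TNTSham. With this length they were not separated beyond their spread (H2-DMb1 higher in 9 of 13 libraries). Ciita, Cd86 and Itgax formed a level of their own with no settled order, at 4.30 to 5.89 CPM per kb in TNTProx1 and 4.80 to 4.91 in TNTSham. Cd207 was last, at 0.597 ± 0.370 CPM per kb in TNTProx1 and 1.08 ± 0.760 in TNTSham. With the length of all annotated exons in place of the principal transcript, H2-Eb1 came second in TNTSham, at 71.6 CPM per kb against 67.5 for H2-Aa, so the order of these chains depends on the length used. By that length H2-DMb1 was at 11.5 CPM per kb in TNTProx1 and 10.9 in TNTSham, and H2-DMa at 6.30 and 5.66.

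The class II genes varied together across libraries, and the spread was wider in TNTProx1. The coefficient of variation of H2-Aa was 30.1% in TNTProx1 and 14.3% in TNTSham, that of H2-Ab1 31.6% in TNTProx1 and 16.4% in TNTSham, that of H2-Eb1 33.4% in TNTProx1 and 17.5% in TNTSham, and that of Cd74 31.4% in TNTProx1 and 14.9% in TNTSham. For H2-DMa the 2 were closer, at 28.3% in TNTProx1 and 22.8% in TNTSham. For Itgax it was 19.8% in TNTProx1 and 25.8% in TNTSham. The wider spread in TNTProx1 was not particular to class II genes. Krt5 had 48.2% in TNTProx1 and 13.2% in TNTSham, and Ttn 62.2% in TNTProx1 and 19.4% in TNTSham. Ccl22 went the other way, at 20.4% in TNTProx1 and 36.5% in TNTSham. The share over all tested genes was not counted. These spreads were not tested against each other. Over the 10 libraries, Pearson correlations of log2 CPM between the 6 genes H2-Aa, H2-Ab1, H2-Eb1, H2-DMa, H2-DMb1 and Cd74 lay between 0.819 and 0.974 in 15 pairs. Within the 7 TNTSham libraries alone they lay between 0.749 and 0.983. All of these values share their libraries and scaling, and they are given as a description.

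Ratios of some of these genes within a library varied less than their levels. Cd74 ran at 1.72 to 2.13 CPM per CPM of H2-Aa in TNTProx1 and at 1.76 to 2.03 in TNTSham. H2-DMb1 ran at 5.68 to 7.51 per 100 of H2-Aa in TNTProx1 and at 6.88 to 7.50 in TNTSham. On the log2 scale the ratio of Cd74 to H2-Aa had an SD of 0.09 over the 13 libraries, against 0.33 for the level of Cd74 and 0.33 for that of H2-Aa. H2-Eb1 per H2-Aa was 0.550 to 0.587 in TNTProx1 1 to 3 and 0.487 to 0.585 in TNTSham, and it stood at 0.618 to 0.727 in TNTProx1 4 to 6, above the other 10 libraries.

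**Figure D3:**
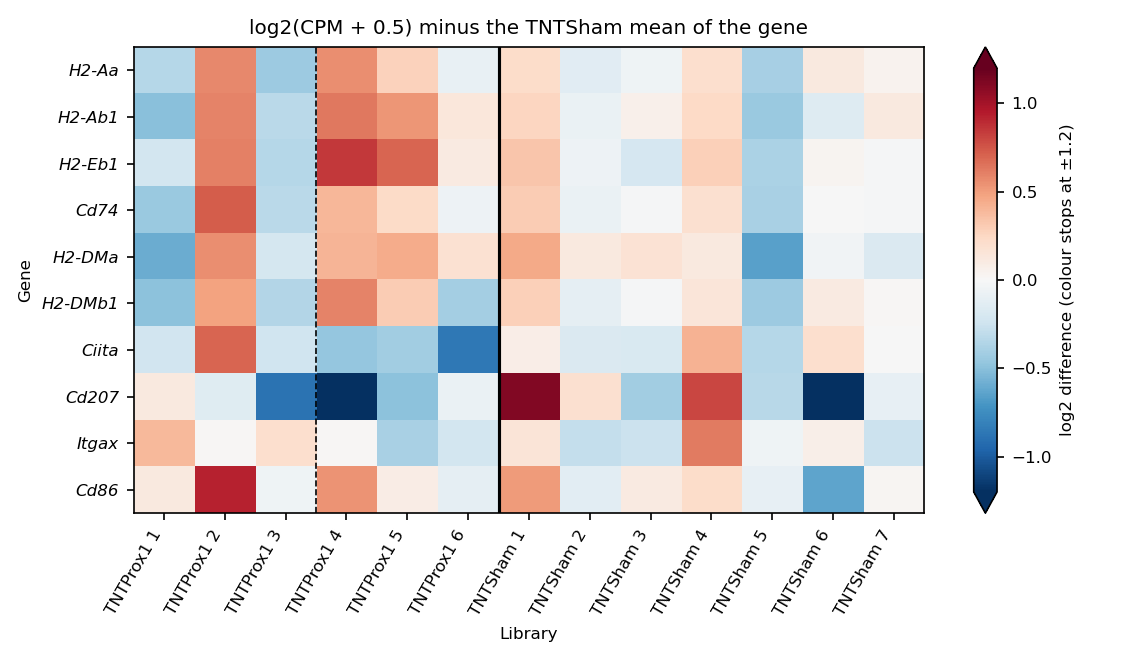
Difference of log2(CPM + 0.5) from the TNTSham mean of the same gene (colour, red higher and blue lower) for the 10 genes (rows) in the TNTProx1 libraries (left of the solid line; TNTProx1 4 to 6 right of the dashed line) and the TNTSham libraries (right). The upper 6 rows are all red in TNTProx1 2, 4 and 5 and in TNTSham 1 and 4, all blue in TNTProx1 1 and 3 and in TNTSham 5, and mixed in TNTProx1 6 and in TNTSham 2, 3, 6 and 7. Ciita is blue in every TNTProx1 library but TNTProx1 2, and in TNTProx1 4 and 5 it is blue where the upper 6 rows are red.

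Ciita followed the class II genes over the 10 libraries, and in TNTProx1 4 to 6 it stood lower relative to them. Over the 10 libraries its Pearson correlation with the mean of the 6 scaled class II genes was 0.882 and its Spearman correlation 0.939. Leaving out TNTProx1 2 and TNTSham 5, the libraries farthest from the median, gave a Pearson correlation of 0.729. Over all 13 libraries, which pool TNTProx1 4 to 6 with the rest, the Pearson correlation was 0.327 and the Spearman correlation 0.319. In TNTProx1 4, 5 and 6 Ciita was at 20.9, 21.6 and 15.8 CPM, at scaled class II means of 1.41, 0.95 and -0.245. These are too few libraries to judge whether Ciita followed the class II genes among them. Per 100 CPM of H2-Aa there were 12.3 to 13.1 CPM of Ciita in TNTProx1 1 to 3 and 10.4 to 13.4 in TNTSham, but 5.59 to 7.03 in TNTProx1 4 to 6. These same libraries had the low TEC share and low Malat1 given above. With the TEC share as a covariate the log2 fold change of Ciita was 0.01. The TEC share sets TNTProx1 4 to 6 apart from the other 10 libraries. It cannot be told apart from anything else particular to them, and the cause of the low Ciita was not tested. Nlrc5, the related coactivator of class I genes, was likewise lowest in these libraries, at 32.2, 34.0 and 31.4 CPM, against 38.7 to 68.4 CPM in TNTProx1 1 to 3 and 38.2 to 69.4 CPM in TNTSham.

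**Figure D4:**
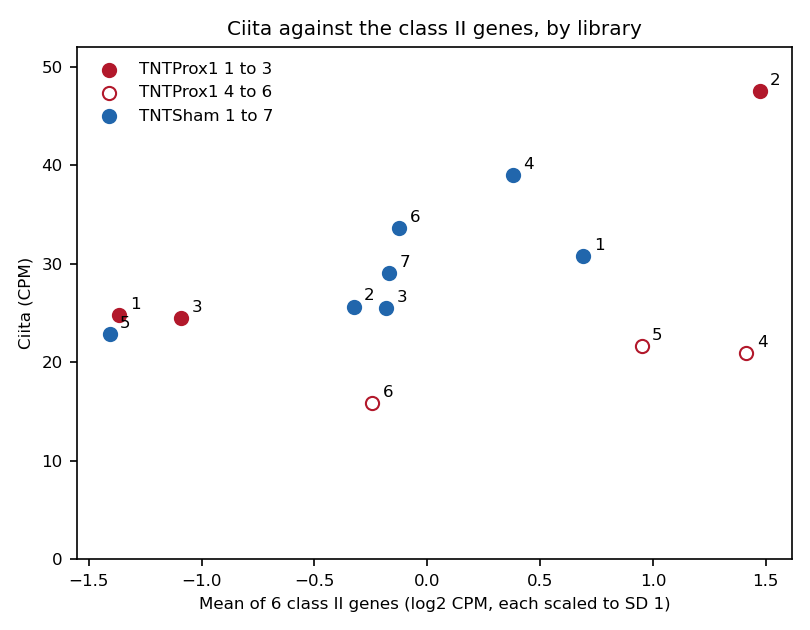
Ciita in CPM (vertical axis) against the mean of 6 scaled class II genes (horizontal axis) in each library, with red circles for TNTProx1 (open for 4 to 6), blue circles for TNTSham and replicate numbers beside the points. TNTProx1 4 to 6 lie at 15.8 to 21.6 CPM, below the other 10 libraries, which lie at 22.8 to 47.5 CPM.

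The other genes of the set did not share this pattern. Over the 10 libraries the Pearson correlation with the class II mean was 0.626 for Cd86 (Spearman 0.564), 0.336 for Cd207 (Spearman 0.285) and 0.004 for Itgax (Spearman 0.127). Without TNTProx1 2 and TNTSham 5 that of Cd86 was 0.297, so it rested on those libraries. Over all 13 libraries the Pearson correlation was 0.636 for Cd86, -0.214 for Cd207 and -0.126 for Itgax. The sign for Cd207 turned with TNTProx1 4 to 6. Of these, TNTProx1 4 had 1 count of Cd207 at a scaled class II mean of 1.41. The value for Itgax over the 10 libraries was too near 0 to have a settled sign. The genes outside the set most like the class II mean over the 10 libraries were Arhgap9 (r = 0.985), Gm7030 (r = 0.949), H2-DMb2 (r = 0.919), the immunoproteasome subunit Psmb9 (r = 0.899) and Amigo2 (r = 0.899). Over all 13 libraries r was 0.980 for Arhgap9, 0.946 for Gm7030, 0.923 for H2-DMb2, 0.399 for Psmb9 and 0.839 for Amigo2. Those most like Cd207 were Zdhhc2 (r = 0.955), Gm2381 (r = 0.946), Inip (r = 0.946), Catsperz (r = 0.939) and Gpr171 (r = 0.936). Over 13 libraries r was 0.647 for Zdhhc2, -0.284 for Gm2381, 0.614 for Inip, 0.828 for Catsperz and 0.091 for Gpr171. Both lists hold the highest r of all tested genes outside the set, over only 10 libraries. A search of so many genes gives high values of r by chance too, and these were not tested.

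Other genes of the class II locus gave 0 called of 4 tested, with 2 higher and a median of -0.06 on the log2 scale, and 0 higher at -0.26 in the 10 libraries. H2-Ob and H2-Oa, chains of the DM inhibitor H2-DO, had log2 fold changes of -0.40 ± 0.32 and -0.15 ± 0.34 (SE), and H2-Eb2 had 0.46 ± 0.41, or -0.30 in the 10 libraries. Of the 7 promoter factors of the X and Y boxes 0 were called, with 3 higher and a median log2 fold change of -0.09. Rfx5 was at 21.6 ± 2.56 CPM in TNTProx1 (SD, n = 6) and 23.1 ± 1.05 CPM in TNTSham (SD, n = 7), and the log2 fold changes were -0.16 ± 0.12 for Rfxank and 0.13 ± 0.10 for Nfyc (SE).

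Genes of class II antigen processing and turnover stood higher in TNTProx1 in 6 of 6 (47.7% of all tested genes), with a median of 0.20 on the log2 scale. In the 10 libraries 5 were higher (49.8% of all tested genes) at a median of 0.23. The edgeR test with 13 libraries called 0, and 3 were higher at an unadjusted p under 0.05 (8.33% of all tested genes in that direction). Lgmn, the endosomal protease legumain, had 209, 236 and 276 CPM in TNTProx1 (lowest, median, highest), against 151, 188 and 207.2 CPM in TNTSham. Its groups did not overlap (0.612% of all tested genes), and it was named for the smallest p of its list. Its log2 fold change was 0.40 ± 0.10 (SE; adjusted p = 0.131 in edgeR). DESeq2 called it (adjusted p = 0.0169), as did limma voom with quality weights (adjusted p = 0.0433) and edgeR without TNTProx1 1 (adjusted p = 0.0465). These fits called 616, 573 and 589 genes in all. Ifi30, the lysosomal thiol reductase GILT, had 0.43 ± 0.15 and Ctss, the cathepsin that trims the invariant chain, 0.30 ± 0.13 (SE). In the 10 libraries Ifi30 had 0.20 and Ctss 0.29. Both are also made by macrophages at large.

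Interferon gamma is the main inducer of Ciita outside professional presenting cells. Ifng itself had 0 to 5 counts per library in TNTProx1 and 0 to 8 in TNTSham and was not tested. Its receptor and signalling genes were higher in 6 of 6 tested (47.7% of all tested genes), with 0 called and a median log2 fold change of 0.21. In the 10 libraries 6 were higher (49.8% of all tested genes) at a median of 0.14. At an unadjusted p under 0.05 in edgeR with 13 libraries 2 were higher (8.33% of all tested genes in that direction). Ifngr1 had 0.21 ± 0.09, Ifngr2 0.27 ± 0.13 and the transcription factor Irf1 0.41 ± 0.20 (SE). In the 10 libraries Ifngr1 had 0.13, Ifngr2 0.03 and Irf1 0.45. Class I presentation genes had 0 of 9 called and 8 higher (47.7% of all tested genes) at a median of 0.09. In the 10 libraries 7 were higher (49.8% of all tested genes). With 13 libraries 2 were higher at an unadjusted p under 0.05 in edgeR (8.33% of all tested genes in that direction). Tapbp, the loading factor tapasin, had 0.33 ± 0.12, the peptide transporter subunit Tap2 0.29 ± 0.12 and Psmb8 0.37 ± 0.21 (SE). Without TNTProx1 1, edgeR called Tapbp and Tap2 (adjusted p = 0.0489 and 0.0413), among 589 genes called in that fit. In the 10 libraries the log2 fold change was 0.14 for Tapbp, 0.15 for Tap2 and 0.13 for Psmb8, and edgeR called 0 genes.

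Costimulation and maturation genes had 0 of 8 called, with 5 higher and a median of 0.16, and 1 was lower at an unadjusted p under 0.05 (3.92% of all tested genes in that direction). Ccl22, a chemokine of mature dendritic cells and macrophages that draws Ccr4-bearing T cells, had 9.32, 11.0 and 15.3 CPM in TNTProx1 (lowest, median, highest), against 10.8, 17.0 and 31.9 CPM in TNTSham. Its log2 fold change was -0.73 ± 0.22 (SE; adjusted p = 0.179 in edgeR). DESeq2 called it lower (adjusted p = 0.0367), among 616 genes called in that fit. Cd83, a maturation marker, had 0.34 ± 0.26 and Icosl -0.22 ± 0.16 (SE).

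The name Langerhans cell rests on few counts in these libraries. Of 10 further Langerhans cell genes 0 were called and 5 were higher, at a median of -0.02, and several are also expressed by keratinocytes or macrophages. Spi1, the myeloid factor PU.1, had 12.5, 25.3 and 28.7 CPM in TNTProx1 (lowest, median, highest), against 13.7, 15.1 and 17.1 CPM in TNTSham, and its fold change on the log2 scale was 0.60 ± 0.17 (SE; adjusted p = 0.150 in edgeR). DESeq2 called it (adjusted p = 0.0371), as did edgeR without TNTProx1 1 (adjusted p = 0.0103), among 616 and 589 genes called in those fits. Mfge8 had 0.45 ± 0.17, or 0.13 in the 10 libraries, and Csf1r, the receptor that keeps Langerhans cells and macrophages alive, 0.30 ± 0.12 (SE). Without TNTProx1 1, edgeR called Mfge8 (adjusted p = 0.0379), among 589 genes called in that fit. At an unadjusted p under 0.05 in edgeR, 3 genes of the list were higher, those named above (8.33% of all tested genes in that direction). Another 2 were lower (3.92% of all tested genes in that direction). The edgeR test with 13 libraries did not call any of them. The 2 lower genes were the adhesion molecule Epcam, with -0.60 ± 0.24 (SE), or -0.96 in the 10 libraries, and the integrin subunit Itgae, with -0.62 ± 0.27 (SE), or -0.75 in the 10 libraries. They were picked after their values were seen. Epcam is also made by epithelial cells and Itgae by T cells of the epidermis.

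Dendritic cell markers had 0 of 10 called, with 3 higher at a median of -0.16 (5 higher at -0.10 in the 10 libraries), and their summed level was 90.6 to 182 CPM in TNTProx1 and 101 to 218 CPM in TNTSham. On the log2 scale the fold change of Cd209a was -0.60 ± 0.29, that of Clec10a -0.30 ± 0.21 and that of the dendritic cell factor Zbtb46 0.19 ± 0.13 (SE). Macrophage markers had 0 of 10 called and 9 higher (47.7% of all tested genes) at a median of 0.38, and 5 were higher at an unadjusted p under 0.05 (8.33% of all tested genes), with Fcgr1 at 0.73 ± 0.22, Cd68 at 0.39 ± 0.14 and C1qb at 0.52 ± 0.19 (SE). Their summed level was 1274 to 2086 CPM in TNTProx1 and 1142 to 1933 CPM in TNTSham. Limma voom with quality weights called Cd68 (adjusted p = 0.0457), among 573 genes called in that fit.

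Markers of the other class II-bearing and surrounding cells varied between libraries. B cell markers summed to 25.4 CPM in TNTProx1 2, the library with the most Cd74 and Ciita, and to 4.83 to 10.8 CPM in the other 5 TNTProx1 libraries, against 4.70 to 23.1 CPM in TNTSham. Keratinocyte markers summed to 5530 CPM in TNTProx1 2 and to 17631 to 54552 CPM in the other 5, against 25973 to 40008 CPM in TNTSham. T cell markers were higher in 2 of 6 (median log2 fold change -0.08), neutrophil markers in 3 of 4 tested (0.32), skeletal muscle markers in 1 of 10 (-0.69), osteoclast markers in 7 of 7 (1.09), B cell markers in 0 of 5 (-0.13) and keratinocyte markers in 1 of 8 (-0.27), and edgeR called 0 of them. In the 10 libraries the T cell median was -0.52 with 2 higher, the neutrophil median 0.32 with 2 higher, the muscle median -1.01 with 0 higher, the osteoclast median 1.30 with 7 higher, the B cell median 0.02 with 3 higher and the keratinocyte median -0.78 with 0 higher. DESeq2 called 4 of the 10 muscle and 4 of the 7 osteoclast markers, against 2.69% of all tested genes. No marker of these lists was at 0 in every library. With the keratinocyte score as a covariate the log2 fold change of Cd207 was -0.81, that of H2-Eb1 0.30 and that of Ciita -0.51 (adjusted p = 0.113 in edgeR). The part of macrophage, dendritic and B cell content in the levels of the class II genes was not tested.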

How the data were processed

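RNA of mouse tail tissue was sequenced as ribosome-depleted stranded paired-end libraries, per the labels' protocols. The authors deposited raw counts per gene for 13 samples. Per the submitters' processing notes, fastp 0.20.1, HISAT2 2.2.1 with build GRCm39 and featureCounts of Subread 2.0.2 were used; the strand, multi-mapping and annotation settings were not given in the sources used here. Symbols and transcript lengths came from GENCODE M21, an older build, which matched 52081 of 55357 identifiers.

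Library sizes were normalized by TMM (edgeR 4.0.16, R 4.3.3). The genes kept by filterByExpr (22876) were fitted with the group alone by the quasi-likelihood F test, with Benjamini-Hochberg adjustment over all of them and a threshold of 0.05. CPM are TMM-scaled, SE and 95% intervals come from the fit, and correlations use log2 CPM with a prior count of 2. Depth was 29691929 to 48007392 counts per library, and it limits Cd207 most, at 1 to 128 counts.

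The 10 genes, the lists, the tests and the alternatives were chosen with earlier results of these data known. Genes of other lists were named by smallest p, up to 3 a list, and likeness by the highest Pearson correlation over the 10 libraries. Nlrc5 and the values by single library were picked after being seen. Alternatives used DESeq2 1.42.0 and limma 3.58.1, other filters and scalings, covariates and left-out libraries. Tests were checked on simulated counts.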

Additional observations from a re-analysis of the deposited data

Results flagged for a closer look

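Each gene's level and 10 ratios between the genes were examined within each group for a library far from the rest, 40 sets in all, of which chance alone flags about 1 in 20. There were 4 flags. Ciita was at 47.5 CPM in TNTProx1 2, against 15.8 to 24.8 CPM in the other TNTProx1 libraries. Itgax was at 29.5 CPM in TNTSham 4, against 15.4 to 21.2 CPM in the other TNTSham libraries. The ratio of H2-DMa to H2-DMb1 was 1.60 in TNTProx1 6, against 0.919 to 1.17 in the other TNTProx1 libraries. Cd86 per 100 CPM of H2-Aa was 2.74 in TNTSham 6, against 4.70 to 5.87 in the other TNTSham libraries.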

How the results depend on the processing

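Of 26 alternative fits, 0 called any of the 10 genes, and the smallest adjusted p of a member in them was 0.113. Of 260 values of the 10 genes, 231 kept their sign and 29 turned. No paired analysis was possible because the labels give the groups no shared replicate numbers. The count of all called genes, 0 in the edgeR test, was 616 with DESeq2, 573 with limma voom, 545 with the TEC covariate and 1 with no filter; leaving out 1 library gave 0 to 589 (589 without TNTProx1 1 and 34 without TNTSham 5). Members of the other lists called were 11, 7 and 5 in the first 3 of these, and 0 to 11 with 1 library left out (11 without TNTProx1 1 and 2 without TNTSham 5). Genes of the set higher in TNTProx1 numbered 2 with limma voom, 3 with the muscle covariate and 9 with the TEC covariate, against 7.

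Signs turned as follows (log2 fold changes). With limma voom: H2-Aa -0.15, H2-Ab1 -0.10, H2-Eb1 -0.023, H2-DMa -0.076, H2-DMb1 -0.15, Cd74 -0.095, Itgax 0.17, H2-Eb2 -0.30 and Rfx5 0.0026. Without TNTProx1 4 to 6: H2-Aa -0.0079, H2-Ab1 -0.0155, H2-DMa -0.037, H2-DMb1 -0.073, Ciita 0.13, Itgax 0.18, H2-Eb2 -0.30, Nfyc -0.0245 and Rfx5 0.043. With the muscle covariate: H2-Aa -0.046, H2-DMb1 -0.10, Cd74 -0.11, Cd86 -0.0453, Cd83 -0.086 and Zbtb46 -0.018. With the keratinocyte covariate: Cd74 -0.0103 and H2-DMb1 -0.0255. With the TEC covariate: Ciita 0.014 and Itgax 0.14. With limma trend: Itgax 0.0026. With 1 library left out, Itgax ran from -0.0971 to 0.12, H2-DMb1 from -0.051 to 0.17, Cd74 from -0.0194 to 0.22, H2-Eb2 from -0.0762 to 0.65 and H2-Oa from -0.47 to 0.0143. The cause was not tested.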
